A study of Rattus norvegicus with 6 samples.

Results

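The translation initiation factors were taken as every protein-coding gene in the read count table whose symbol begins with Eif and a factor number from 1 to 6, leaving out the eIF2 kinases, whose symbols begin with Eif2ak. This gave 49 gene rows of 18746, under 48 symbols, because Eif3h was listed under 2 gene IDs. The transcripts were measured in PC12, a rat pheochromocytoma cell line, by strand-specific sequencing of polyadenylated RNA. Cells were transfected with a lipid reagent to knock down Nqo1 (siNQO1, n = 3) or with a control (siCtrl, n = 3), to ask which transcripts depend on NQO1, a quinone reductase that also binds RNA. The labels called the knockdown samples shNQO1 and the controls control plasmid, and named both shRNA and siRNA, whereas the study's methods describe siRNA duplexes, so the reagent was taken only as a knockdown of Nqo1. All 6 samples came from the same line grown in the same serum-containing medium, with the harvest given as 48 h after transfection for cells used in RT-qPCR. The study called the replicates biological, and since the labels did not say whether they were separate cultures, p-values measure only the spread between these samples.

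Initiation factors bring the ribosome to the start codon of an mRNA. The factor eIF2 carries the initiator tRNA to the small ribosomal subunit together with eIF1, eIF1A, eIF3 and eIF5, while eIF4E binds the cap, eIF4G bridges the cap to the ribosome and eIF4A, helped by eIF4B or eIF4H, unwinds the leader, and eIF5B joins the large subunit. The pathway is known for control points at eIF2B, which recharges eIF2 with GTP and is blocked when the alpha subunit of eIF2 is phosphorylated, and at the 4E-binding proteins, which hold eIF4E until mTORC1 phosphorylates them.

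The libraries held 28873824 to 39467230 reads assigned to genes, and initiation factors took 1.13 to 1.16% of them in every library. Nqo1 stood at 321 to 369 FPKM (fragments scaled to transcript length and library depth) in siCtrl and 75.2 to 80.8 FPKM in siNQO1, so the groups did not overlap. The first principal component, with 44.4% of the variance, placed siCtrl replicates 1 and 3 at -32.2 and -20.7 and the siNQO1 libraries at 12.1 to 19.6, but siCtrl replicate 2 lay at 5.08, so results that rest on it are given with and without it. Of 15 genes that define PC12 cells, 13 were listed and only Scg2, a granule protein, passed 1 FPKM in every library, at 165 to 175 FPKM in siCtrl and 108 to 119 FPKM in siNQO1, which made up nearly all of the summed level of 166 to 176 FPKM in siCtrl and 109 to 119 FPKM in siNQO1. Th, the enzyme that starts catecholamine synthesis, did not exceed 0.090 FPKM in any library, and Chga, Chgb, Ddc, Phox2a, Cyb561 and Syt1 were at or under 0.1 FPKM in all of them. Of 9 Schwann and glial markers, 8 were listed and 6 passed 1 FPKM everywhere, with a summed level of 479 to 544 FPKM in siCtrl and 428 to 432 FPKM in siNQO1. Sox10 alone gave 198 to 233 FPKM in siCtrl and 192 to 208 FPKM in siNQO1, while S100b went from 221 to 250.4 FPKM in siCtrl to 169 to 175 FPKM in siNQO1 and was called lower. Lists of fibroblast, endothelial, immune and epithelial markers had 2, 1, 1 and 1 genes over 1 FPKM in every library, and none of their genes was called. The part of these marker shifts in the initiation factor values was not tested, and in bulk RNA fewer cells of a type and less RNA per cell cannot be told apart.

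Most initiation factor transcripts showed no called difference after Nqo1 knockdown, and those that moved belonged to several steps of initiation. Eif1ax, Eif2s1, Eif4g1, Eif4e2 and Eif2b5 fell and Eif5b and Eif4b rose, at an adjusted p below 0.05 in edgeR's quasi-likelihood test over all 12420 genes tested, which is what "called" means throughout. The 48 members tested gave 7 called (14.6%), beside 12.6% of all genes. Of these, 2 were higher (4.17%, beside 5.27% of all genes) and 5 were lower (10.4%, beside 7.38%). With all 6 libraries, these shares lie near those over all genes and set the family apart in neither direction. No member passed a fold change of 2 as well, which 0.435% of all genes did. At an unadjusted p below 0.05 there were 15 members (31.2%), beside 29% of all genes. The groups did not overlap in CPM (reads of a gene scaled to library depth) for 14 members (29.2%), 7 higher and 7 lower (14.6% each), beside 34.2% of all genes, 16.3% higher and 17.9% lower. The median log2 fold change of the members was -0.00078, beside 0.0099 for all genes. Among the 41 members not called, 21 had a log2 fold change within 0.1 of 0 and 32 within 0.2. Without siCtrl replicate 2 the shares lay above those over all genes. In that fit 14 of the 48 members were called higher, beside 17.2% of all genes, and 13 lower, beside 16.1%. The 49th row, the second Eif3h ID, held 0 to 3 reads in each library and was not tested.

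**Figure D1:**
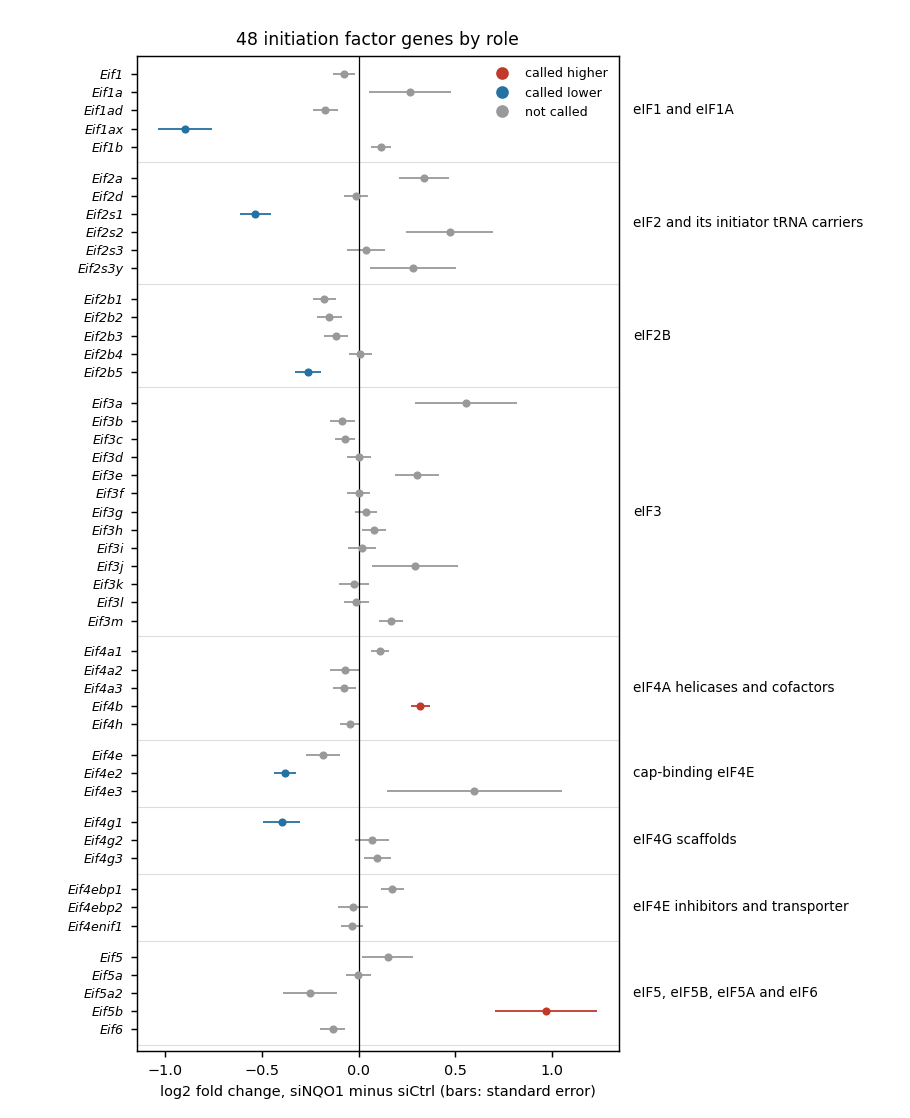
The log2 fold change of siNQO1 over siCtrl (x axis) is plotted for the 48 initiation factor genes tested (y axis), grouped by role, with bars for the standard error and color for the edgeR call. Most points sit close to 0, Eif1ax lies farthest to the left at -0.90 and Eif5b farthest to the right at 0.97.

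The following lines show the 200 bases upstream of the RefSeq start in the GRCr8 assembly, which is not the RGSC6 build of the deposited files. They are given for the called genes that fell under every choice of 5 libraries and have a listed promoter, and for Eif5b, with the largest rise, written 5′ to 3′ on the strand of the gene. Capitals mark matches, on either strand, to the 7 motifs searched, whose letters are spelled out beside their shares after the sequences.
Eif1ax, chrX:39322024-39322223, minus strand: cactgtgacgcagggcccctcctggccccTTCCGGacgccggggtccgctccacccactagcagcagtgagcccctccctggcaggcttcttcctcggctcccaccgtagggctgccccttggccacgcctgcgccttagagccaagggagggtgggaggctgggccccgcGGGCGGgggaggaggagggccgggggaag
Eif2s1, chr6:103405680-103405879, plus strand: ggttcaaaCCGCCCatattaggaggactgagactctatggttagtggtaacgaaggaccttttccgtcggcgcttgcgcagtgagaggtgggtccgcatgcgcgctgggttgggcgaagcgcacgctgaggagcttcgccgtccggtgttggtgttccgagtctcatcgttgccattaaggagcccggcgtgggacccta
Eif4e2, chr9:95333825-95334024, plus strand: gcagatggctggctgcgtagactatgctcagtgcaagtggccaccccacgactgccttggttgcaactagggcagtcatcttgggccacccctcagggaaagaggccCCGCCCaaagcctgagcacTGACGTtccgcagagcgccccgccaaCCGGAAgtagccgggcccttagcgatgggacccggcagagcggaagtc
Eif5b, chr9:47718506-47718705, plus strand: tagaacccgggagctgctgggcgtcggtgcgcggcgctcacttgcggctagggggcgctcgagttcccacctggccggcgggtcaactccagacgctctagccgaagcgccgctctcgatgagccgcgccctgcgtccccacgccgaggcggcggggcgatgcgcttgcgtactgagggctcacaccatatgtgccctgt
Eif1ax had an ETS core beginning 171 bases before the start and a GC box 29 bases before it. Eif2s1 had a GC box 192 bases before its start. Eif4e2 had a GC box at 93, a cAMP response element core at 74 and an ETS core at 48 bases, and a second listed start of Eif4e2 had 3 GC boxes and an ETS core that overlaps the first of them. No letters of these motifs were found in the Eif5b or Eif2b5 windows, and Eif4g1 had GC boxes at 71 and 45 bases and an E-box at 54 bases. Promoters were listed for 43 of the 48 symbols, all but Eif3e, Eif3h, Eif4b, Eif4e3 and Eif4ebp1. Across the 46 listed initiation factor promoters, 60.9% held a GC box, searched as GGGCGG, beside 28.6% of 33469 rat promoters of the same length. An ETS core, searched as CCGGAA, was present in 47.8% of the initiation factor promoters, beside 11.3% of all promoters. The E-box that MYC and USF proteins can bind, CACGTG, was in 15.2%, beside 4.69%. The core of the cAMP response element, TGACGT, was found in 17.4% of the initiation factor windows and in 6.13% of all windows. For the antioxidant response element, through which NRF2 acts on Nqo1 itself, the core was written TGACNNNGC and found in 13.04%, beside 8.43%. The CCAAT box, searched by those letters, was in 26.1%, beside 29.2%, and the TATA box, searched as TATAAA, was in 2.17%, beside 10.4%. The GC box and ETS core can share letters, as at the second Eif4e2 start. A match describes letters only and names no bound factor. The 33469 promoters were not limited to genes expressed in these cells, whereas nearly all initiation factors were expressed. The part of this in the differences between the shares was not tested.

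**Figure D2:**
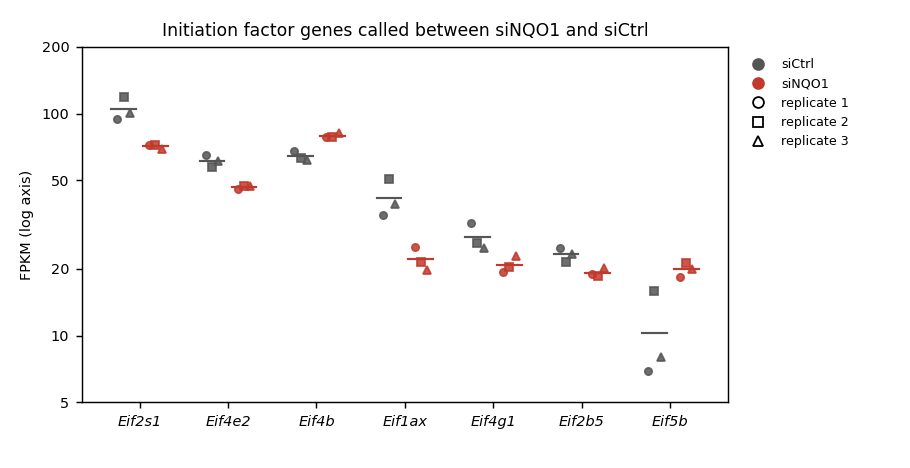
Each point is the FPKM (y axis, log scale) of 1 library for the 7 initiation factor genes called (x axis), with siCtrl in grey, siNQO1 in red, a shape for each replicate number and a line at the group mean. Eif2s1, Eif4e2, Eif1ax, Eif4g1 and Eif2b5 sit lower in all 3 siNQO1 libraries and Eif4b and Eif5b higher, with siCtrl replicate 2 of Eif5b, at 15.9 FPKM, closest to the siNQO1 points.

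The genes for the start-site recognition factors eIF1 and eIF1A were grouped with Eif1ad, which was placed there by its symbol. Of these 5 genes, 1 was lower and 4, among them Eif1ad, were not called. Eif1ax, the X-linked gene for eIF1A, which helps the small subunit scan for the start codon, measured 35.02, 50.7 and 39.4 FPKM in siCtrl replicates 1, 2 and 3 and 25.15, 21.5 and 19.85 FPKM in siNQO1 replicates 1, 2 and 3. All 3 siNQO1 libraries lay below all siCtrl libraries, and the siNQO1 mean was 53.1% of the siCtrl mean. This was a log2 fold change of -0.90 ± 0.14 (SE), with an adjusted p of 0.00537 in the edgeR quasi-likelihood test. The call held with any 1 of the 6 libraries left out, at an adjusted p of at most 0.0480. Eif1a, an autosomal gene for a near-identical eIF1A protein, measured 13.2, 25.8 and 14.8 FPKM in siCtrl and 21.6, 21.0 and 21.4 FPKM in siNQO1, and was not called. Its siNQO1 values lay between the low and the high siCtrl values. The log2 fold change of Eif1a was 0.26 ± 0.21 (SE), and since the study counted uniquely mapped reads, how far the shared stretches of Eif1ax and Eif1a affect either value was not tested. Eif1, the partner that guards start codon choice, was the most abundant gene of the group, with 544, 480.1 and 518 FPKM in siCtrl and 472, 491 and 485 FPKM in siNQO1. These groups overlapped and the log2 fold change of Eif1 was -0.08.

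Of eIF2 and the other carriers of initiator tRNA, 1 of 6 genes was lower and 5 were not called. Eif2s1, which encodes the alpha subunit of eIF2, the target of the stress kinases, measured 94.7, 118 and 100.4 FPKM in siCtrl and 72.5, 72.4 and 69.3 FPKM in siNQO1. The groups did not overlap, and the siNQO1 libraries lay within a narrow band. On the log2 scale the fold change was -0.54 ± 0.080 (SE), with an adjusted p of 0.00483 in edgeR, and the call held with any 1 library left out at an adjusted p of at most 0.0406. The beta subunit, Eif2s2, measured 54.3, 114 and 69.2 FPKM in siCtrl and 102, 119 and 106 FPKM in siNQO1. Here siCtrl replicate 2 stood among the siNQO1 libraries, and the log2 fold change of 0.47 ± 0.22 (SE) was not called (adjusted p = 0.206 in edgeR). Without siCtrl replicate 2 the log2 fold changes were -0.44 for Eif2s1 and 0.82 for Eif2s2, and both were called. The gamma subunit is encoded by Eif2s3 on the X and Eif2s3y on the Y chromosome, with log2 fold changes of 0.04 and 0.28, neither called. These are near copies of each other, as are the eIF1A genes, and their separate values are uncertain for the same reason.

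Of the 5 subunits of eIF2B, the exchange factor that recharges eIF2, 1 was lower and 4 were not called, and the median log2 fold change was -0.15. Eif2b5, the catalytic epsilon subunit, measured 24.9, 21.5 and 23.3 FPKM in siCtrl and 18.9, 18.5 and 20.2 FPKM in siNQO1. The lowest siCtrl library still lay above the highest siNQO1 library. Its log2 fold change was -0.26 ± 0.067 (SE), with an adjusted p of 0.0384 in edgeR. This call held only without siCtrl replicate 2 and was lost without any other library, with an adjusted p of up to 0.120. Eif2b1, the alpha subunit, measured 71.4, 62.6 and 67.7 FPKM in siCtrl and 57.45, 60.2 and 58.8 FPKM in siNQO1. These groups did not overlap either, and the log2 fold change of -0.18 had an adjusted p of 0.0825 in edgeR and was called with the filter of over 1 CPM in 3 libraries (adjusted p = 0.0437). Eif2b2, the beta subunit, was the most abundant, at 92.2 ± 6.92 FPKM (SD, n = 3) in siCtrl and 82.3 ± 2.11 FPKM (SD, n = 3) in siNQO1, and was not called.

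None of the 13 eIF3 genes tested was called in edgeR with all libraries. Without siCtrl replicate 2, 6 of the 13 were called, beside 33.3% of all genes in that fit. Of these, Eif3a, Eif3j, Eif3e and Eif3m were higher and Eif3b and Eif3c lower. The complex is the largest initiation factor and the platform on which the other factors meet the small subunit. The log2 fold changes ran from -0.09 to 0.55 with a median of 0.02, and the siCtrl means ran from 23.7 to 281 FPKM. Eif3f, the most abundant, measured 292, 260.4 and 292 FPKM in siCtrl and 275, 277 and 285 FPKM in siNQO1. Its siNQO1 libraries all lay within the siCtrl range. The widest spread was in Eif3a, the largest subunit, with 15.8, 37.55 and 19.5 FPKM in siCtrl and 35.1, 36.7 and 34.1 FPKM in siNQO1. Replicates 1 and 3 of siCtrl lay well below every siNQO1 library while replicate 2 lay above them all. Its log2 fold change of 0.55 ± 0.26 (SE) was not called (adjusted p = 0.205 in edgeR). Without siCtrl replicate 2 it was 1.00 ± 0.078 (SE) and called. Eif3j, a loosely bound subunit, had the same order, with 16, 34 and 21.1 FPKM in siCtrl and 28.2, 30.8 and 27.3 FPKM in siNQO1. Eif3e and Eif3h were listed on chromosomes 13 and 6 in the deposited table and on chromosome 7 in RefSeq, so their identity is less certain.

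**Figure D3:**
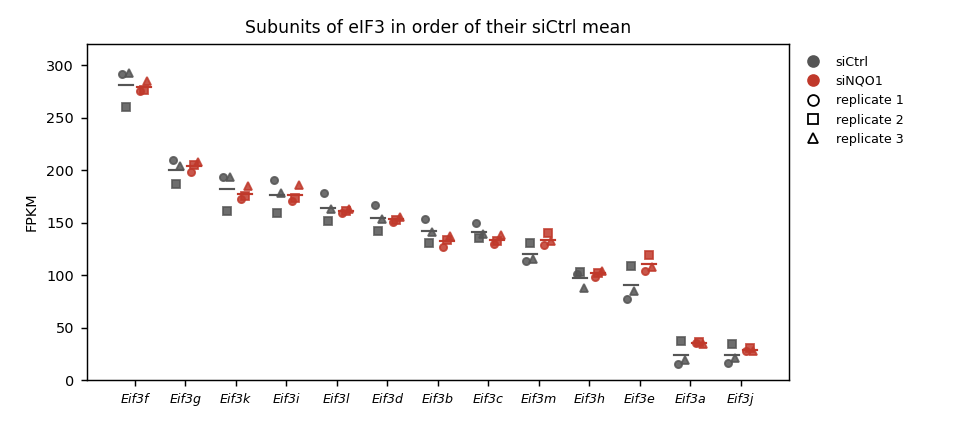
The FPKM (y axis) of each library is shown for the 13 eIF3 genes tested (x axis, ordered by siCtrl mean), with siCtrl in grey, siNQO1 in red, a shape for each replicate number and a line at the group mean. Eif3f was highest, at 260.4 to 292 FPKM, and in Eif3a and Eif3j siCtrl replicate 2 stands apart from replicates 1 and 3.

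Of the eIF4A helicases and their cofactors, 1 of 5 genes was higher and 4 were not called. Eif4b, which stimulates the helicase, measured 67.5, 63.1 and 61.8 FPKM in siCtrl and 78.2, 78.3 and 81.4 FPKM in siNQO1. Every siNQO1 library exceeded every siCtrl library, with little spread in either group. The log2 fold change was 0.32 ± 0.049 (SE), with an adjusted p of 0.00520 in edgeR, and it was called with any 1 library left out at an adjusted p of at most 0.0310. Eif4a1, the main helicase, measured 411, 398 and 389.8 FPKM in siCtrl and 420.4, 433 and 428 FPKM in siNQO1. The siNQO1 libraries were all higher by a small margin, and the log2 fold change of 0.11 was not called (adjusted p = 0.156 in edgeR).

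Among the cap-binding proteins, 1 of 3 genes was lower and 2 were not called. Eif4e2, a cap-binding homolog known as a repressor of translation with GIGYF2, measured 65.4, 57.3 and 61.0 FPKM in siCtrl and 45.7, 47.0 and 47.05 FPKM in siNQO1. The groups were clearly apart and the siNQO1 values nearly equal to each other. For Eif4e2 the log2 fold change was -0.38 ± 0.057 (SE), with an adjusted p of 0.00499 in edgeR, and the call held with any 1 library left out at an adjusted p of at most 0.0275. Eif4e, the canonical cap-binding factor, measured 49.1, 60.8 and 48.5 FPKM in siCtrl and 48.1, 45.8 and 44.2 FPKM in siNQO1. Its siNQO1 libraries lay below all siCtrl libraries on this scale, by a small margin from replicates 1 and 3, and overlapped them in CPM. The log2 fold change of -0.18 ± 0.086 (SE) was not called. Eif4e3 had only 4 to 30 reads in each library, and its log2 fold change of 0.60 ± 0.45 (SE) cannot be read at this depth.

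Of the scaffold proteins, 1 of 3 genes was lower and 2 were not called. Eif4g1, the main scaffold that joins cap, helicase and eIF3, measured 32.3, 26.1 and 24.9 FPKM in siCtrl and 19.4, 20.3 and 22.8 FPKM in siNQO1. The siNQO1 libraries were all lower, although siNQO1 replicate 3 came close to siCtrl replicate 3. This gave a log2 fold change of -0.40 ± 0.096 (SE), with an adjusted p of 0.0312 in edgeR. The call held without any 1 siCtrl library and was lost without any 1 siNQO1 library, with an adjusted p of up to 0.118. As background, the NQO1 protein is known to bind the eIF4G1 protein and slow its breakdown by the proteasome, and no protein was measured here. Eif4g2, which encodes the scaffold DAP5 that lacks the eIF4E site, measured 92.7, 111 and 94.8 FPKM in siCtrl and 112, 104 and 93.9 FPKM in siNQO1. Both groups covered the same range, and the log2 fold change was 0.07.

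Neither the 4E-binding proteins nor the eIF4E transporter was called. Eif4ebp1, an inhibitor of eIF4E, measured 144, 136 and 152 FPKM in siCtrl and 154, 164 and 166 FPKM in siNQO1. The groups stood apart by a narrow gap, and the log2 fold change of 0.17 had an adjusted p of 0.0939 in edgeR. The related Eif4ebp2 stood at 15.01 ± 1.035 FPKM (SD, n = 3) in siCtrl and 14.6 ± 0.653 FPKM (SD, n = 3) in siNQO1.

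Of the genes for eIF5, eIF5B, eIF5A and eIF6, 1 of 5 was higher and 4 were not called. Eif5b, the GTPase that joins the large subunit, measured 6.90, 15.9 and 8.0 FPKM in siCtrl and 18.4, 21.3 and 20.04 FPKM in siNQO1. All siNQO1 libraries lay above all siCtrl libraries, and siCtrl replicate 2 lay nearer to them than to its own group. The log2 fold change was 0.97 ± 0.26 (SE), with an adjusted p of 0.0454 in edgeR. Without siCtrl replicate 2 it was 1.42 ± 0.079 (SE), and without any 1 of the other 5 libraries the call was lost, with an adjusted p of up to 0.182. DESeq2, scaling by library size alone and a filter of over 1 CPM in 3 libraries also ended this call, with an adjusted p of up to 0.0767. Eif5a, which carries the hypusine residue and aids elongation, was the most abundant initiation factor transcript, with 1285, 1149 and 1299.8 FPKM in siCtrl and 1218, 1234 and 1243 FPKM in siNQO1. The siNQO1 libraries sat inside the siCtrl range, and the log2 fold change was -0.0019 ± 0.064 (SE). Its scarce homolog Eif5a2 had 5.71, 8.51 and 6.21 FPKM in siCtrl and 5.80, 6.04 and 5.15 FPKM in siNQO1, and its log2 fold change of -0.25 was not called.

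For all 7 called genes an exact two-sided permutation test of the 3 against 3 libraries gave p = 0.10, the smallest this design allows. RefSeq lists pseudogene loci named after 28 of the members, among them 4 for Eif4b, 3 each for Eif2s1 and Eif4g1, and 1 each for Eif1ax, Eif4e2 and Eif5b, and how reads shared with such copies affect these values was not tested.

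The control libraries differed among themselves more than the knockdown libraries did. In CPM, 8 members (16.7%) spanned over 1.5-fold within siCtrl, beside 19.4% of all genes, and 1 member (2.08%) did within siNQO1, beside 10.5% of all genes. These 8, named after their values were seen, were Eif4e3, Eif3a, Eif5b, Eif3j, Eif2s2, Eif2s3y, Eif1a and Eif2a, with the highest siCtrl value at 1.51 (Eif2a) to 2.37 (Eif3a) times the lowest in 7 of them. Eif4e3, with its few reads, was the eighth, at 3.87 times, and was also the single member within siNQO1. In all 8 siCtrl replicate 1 was lowest and replicate 2 highest. Of the 2414 genes over the whole table with such a span, 46.1% had this order and 61.5% had replicate 2 highest. Without regard to the span, 18 members (37.5%) had the order, beside 22.2% of all genes, and replicate 2 was highest in 20 members (41.7%), beside 35.1%. Only Eif5b was called with all 6 libraries. Without siCtrl replicate 2, 7 of the 8 were called higher and none lower, with log2 fold changes of 0.49 (Eif2a) to 1.42 (Eif5b), and Eif4e3 was not called. Because replicate 2 was the highest control in all 8, leaving it out raised their fold changes by construction. Their direction in that fit is therefore no separate result. Over the whole family, leaving out siCtrl replicate 2 gave 14 of 48 members called higher and 13 lower, among them the 7 called with all libraries. Both shares were larger than those over all genes, of which 33.3% were called in that fit, 17.2% higher and 16.1% lower. The 20 members called then and not with all libraries included Eif1, Eif2b1 and Eif2b2, with log2 fold changes of -0.13, -0.23 and -0.22, and Eif4a1, at 0.10. Without siCtrl replicate 1 or 3, 1 member was higher and 4 were lower, beside 7.97% and 5.93% of all genes called. Without siNQO1 replicate 1, 2 or 3, 1 member was higher and 3 were lower, beside 5.71%, 4.1% and 4.85% of all genes called. The share of reads from mitochondrial genes was 4.25, 6.40 and 5.19% in siCtrl replicates 1, 2 and 3 and 6.01 to 6.53% in siNQO1, so siCtrl replicate 2 lay among the siNQO1 libraries in this measure too. The part of that difference in these results was not tested.

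**Figure D4:**
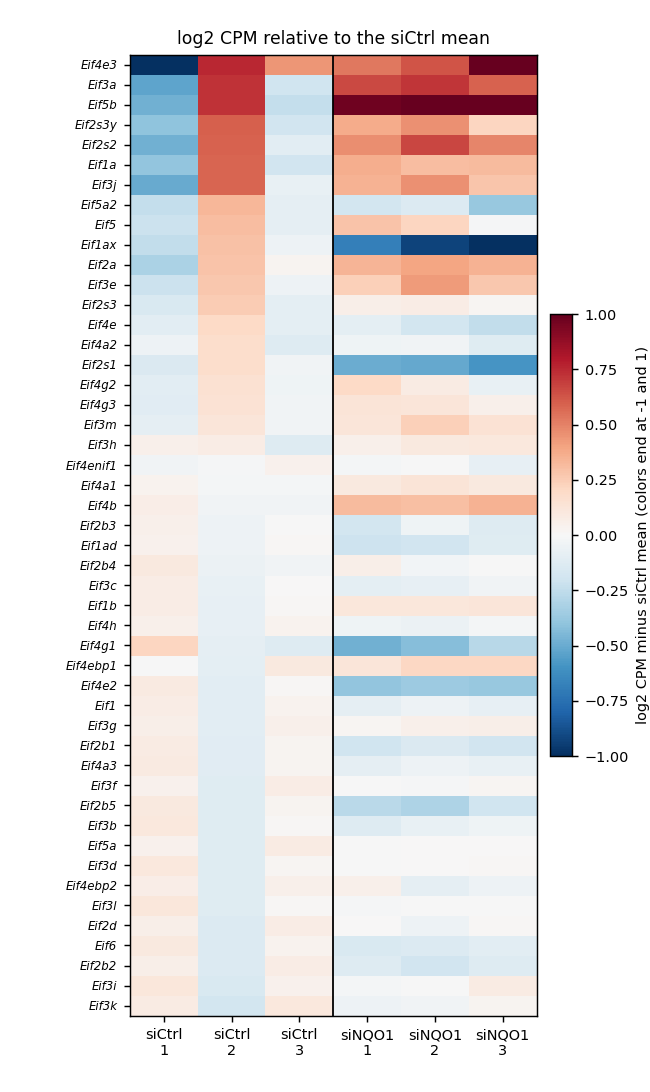
Color shows log2 CPM minus the siCtrl mean for each of the 48 initiation factor genes tested (rows, ordered by siCtrl replicate 2) in the 6 libraries (columns), with colors ending at -1 and 1. At the top, siCtrl replicate 2 is red like the siNQO1 libraries for Eif3a, Eif5b, Eif2s3y, Eif2s2, Eif1a and Eif3j, while Eif1ax, Eif2s1, Eif4e2 and Eif4g1 are blue in all 3 siNQO1 libraries.

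Shares within a family of related factors compare genes inside a library and so do not depend on scaling between libraries. The share of Eif4b in the sum of Eif4b and Eif4h, both helicase cofactors, was 27.0, 27.5 and 25.9% of FPKM in siCtrl and 32.0% in each siNQO1 library. The groups did not overlap, and the difference was 5.20 percentage points (exact two-sided permutation p = 0.10). Eif1 made up 87.0, 86.8 and 87.1% of Eif1 and Eif1b in siCtrl and 85.3, 85.7 and 85.3% in siNQO1. That difference of -1.57 points also separated the groups. Eif4a1 within the helicase pair and Eif4ebp1 within the inhibitor pair were higher in siNQO1 by 1.68 and 1.13 points without overlap. Eif4g1 held 23.4, 17.2 and 18.7% of the scaffolds in siCtrl and 13.3, 14.6 and 17.4% in siNQO1, and these values overlapped (exact permutation p = 0.20). Eif4e2 held 57.1, 48.5 and 55.6% of the cap-binding genes in siCtrl and 48.7, 50.6 and 51.4% in siNQO1, again with overlap (exact permutation p = 0.40). Both overlaps rest on siCtrl replicate 2. Without it the differences were -5.97 points for Eif4g1, -6.12 points for Eif4e2 and 0.72 points for Eif4a1, with no overlap. Because that library was the lowest control in these shares, leaving it out moved the differences by construction. Eif5a took over 99% of its pair in every library. The pair of Eif1ax and Eif1a, added after the values were seen, showed the widest difference of the shares computed, with Eif1ax at 72.7, 66.3 and 72.6% in siCtrl and 53.8, 50.5 and 48.1% in siNQO1. Over the 13 shares tested, the smallest Benjamini-Hochberg adjusted value of these exact p-values was 0.186.

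**Figure D5:**
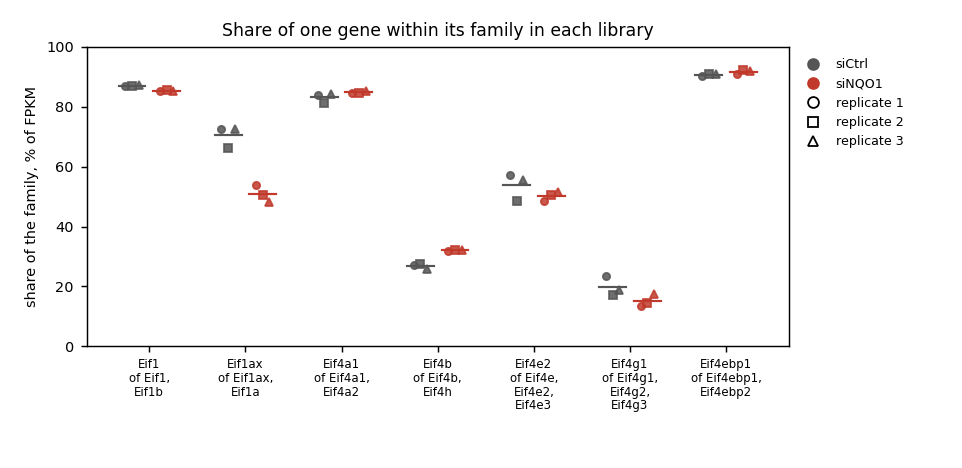
Each point is the share of 1 gene in the summed FPKM of its family (y axis, percent) in 1 library, with siCtrl in grey, siNQO1 in red, a shape for each replicate number and a line at the group mean. Eif1ax drops from 66.3 to 72.7% in siCtrl to 48.1 to 53.8% in siNQO1 and Eif4b rises from 25.9 to 27.5% to 32.0%, while the shares of Eif4e2 and Eif4g1 overlap.

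Genes that act on the initiation factors were read from 6 lists of pathway partners. Of 84 such genes tested, 9 were higher, a larger share than the 5.27% of all genes. Another 6 were lower, near the share of 7.38% of all genes. The lists were chosen with earlier results of these data known, so this larger share is no independent result. With 1 library left out the count higher ran from 2 to 19. The 2 came without siNQO1 replicate 2, where 4.1% of all genes were called in either direction. The 19 came without siCtrl replicate 2, where 17.2% of all genes were higher. The small counts of the single lists below stand beside the shares of 5.27% and 7.38% over all genes. Of 11 regulators of eIF2 phosphorylation, 2 were higher and 1 lower. Impact, an inhibitor of the kinase GCN2, measured 8.58, 11.96 and 9.14 FPKM in siCtrl and 17.45, 17.8 and 15.4 FPKM in siNQO1. All siNQO1 libraries lay above, and the log2 fold change was 0.78 ± 0.12 (SE, adjusted p = 0.00576 in edgeR). The call was lost without siNQO1 replicate 2 (adjusted p = 0.0526). Dnajc3, an inhibitor of the kinases PERK and PKR, had a log2 fold change of 0.32, and Ppp1r15b, the constitutive partner of the eIF2 alpha phosphatase, of -0.26, a call lost under 3 other settings with an adjusted p of up to 0.0563. The 4 kinases themselves, Eif2ak1 to Eif2ak4, were not called.

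Among ATF4, the factor translated when eIF2 alpha is phosphorylated, and its targets, none of 14 genes was higher and 2 were lower. Mthfd2, a mitochondrial folate enzyme, measured 30.8, 29.1 and 29.1 FPKM in siCtrl and 21.95, 21.2 and 21.3 FPKM in siNQO1. These groups did not overlap, and the log2 fold change was -0.45 ± 0.054 (SE, adjusted p = 0.00199 in edgeR). Trib3, a pseudokinase, had a log2 fold change of -0.38, and this call was lost under 3 other settings, with an adjusted p of up to 0.0611. Atf4 itself was not called, with a log2 fold change of -0.14.

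In the mTORC1 and MNK list, 2 of 19 genes were higher and 1 was lower. Pdcd4, an inhibitor of eIF4A, measured 6.37, 8.24 and 7.89 FPKM in siCtrl and 11.6, 11.6 and 11.97 FPKM in siNQO1. All siNQO1 libraries were higher, and the log2 fold change was 0.65 ± 0.10 (SE, adjusted p = 0.00570 in edgeR). Ddit4, an inhibitor of mTORC1, had a log2 fold change of 0.33 and Rraga, a GTPase that brings mTORC1 to the lysosome, of -0.28.

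Of 16 partners at the cap, the poly(A) tail and the small subunit, 3 were higher and 1 was lower. Paip2, which inhibits the poly(A)-binding protein, had a log2 fold change of 0.38, the ribosome recycling factor Abce1 of 0.43, the poly(A)-binding gene Pabpc4 of 0.22 and the nuclear cap-binding gene Ncbp1 of -0.24. Among 15 elongation and termination factors only Eef2k, the kinase that inhibits eEF2, was called, with a log2 fold change of 0.23. Of 9 hypusine and polyamine enzymes, 1 was higher and 1 lower. Sms, spermine synthase, measured 23.2, 24.2 and 23.0 FPKM in siCtrl and 32.3, 32.7 and 31.4 FPKM in siNQO1. Dhps, which starts hypusine formation on eIF5A, measured 71.1, 59.1 and 65.0 FPKM in siCtrl and 48.8, 48.3 and 51.0 FPKM in siNQO1. Both pairs of groups were apart, and the log2 fold changes were 0.47 ± 0.055 (SE, adjusted p = 0.00188 in edgeR) for Sms and -0.38 ± 0.070 (SE, adjusted p = 0.0106 in edgeR) for Dhps. Of the 15 genes called in these lists, Sms, Dhps, Mthfd2 and Pdcd4 were called with any 1 library left out, and the other 10 beside Impact lost their call without siNQO1 replicate 2 and also without siNQO1 replicate 3.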

How the data were processed

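PC12 cells were sequenced in 6 libraries, 3 siNQO1 and 3 siCtrl, grouped by the sample titles. According to the study's methods, the authors discarded reads with too many undetermined bases, trimmed them with FASTX-Toolkit, aligned them with TopHat2 to RGSC6 and counted uniquely mapped reads. Tools listed in the submitters' processing notes were edgeR, bcl2fastq and TopHat2. The sources used here give neither the counting tool nor its strand setting. The deposited values were raw read counts per gene, used for tests, and FPKM computed by the authors, used for levels and shares.

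Counts of all 18746 genes were filtered with filterByExpr, which kept 12420, scaled by TMM and tested with the quasi-likelihood test of edgeR 4.0.16 in R 4.3.3 without a block, and p-values were adjusted by Benjamini-Hochberg over all genes tested. The script was tested on simulated data. Alternatives were RLE, upper-quartile and library size scaling, no filter beyond 1 read, a filter of over 1 CPM in 3 libraries, DESeq2 1.42.0, the edgeR exact test, limma 3.58.1 with voom or with log2(FPKM + 1) or log2(FPKM + 0.1), a replicate block, and leaving out each library. The biological coefficient of variation was 0.109, and depth was 28873824 to 39467230 reads, whose counting error is small for all members but Eif4e3.

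Members and gene lists were chosen with earlier results of these data known. Named were every called member, the most abundant uncalled gene of each role, the 3 largest uncalled changes in each direction, and up to 4 called genes per pathway list. Other genes are named for context or where a result turned on them, after their values were seen. Single values of some marker genes are not reported here. Promoters came from RefSeq (GRCr8), whose positions were otherwise used only for the chromosome of each gene and the order of neighboring genes.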

Additional observations from a re-analysis of the deposited data

How the results depend on the processing

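The replicate numbers were shared between groups, but libraries with the same number correlated at only -0.04, 0.16 and 0.06 once group means were removed, so the libraries were left unpaired. With a replicate block, 3 initiation factors were higher and 5 lower, with a median log2 fold change of 0.0017, and 11 pathway genes were higher and 5 lower. Initiation factors called higher, 2 as reported, fell to 1 with scaling by library size alone and to 1 with the filter of over 1 CPM, and ran from 1 to 14 when 1 library was left out. Initiation factors called lower, 5 as reported, ran from 3 to 13, and the median log2 fold change ran from -0.057 to 0.014. Both highest counts and the lowest median came without siCtrl replicate 2, and the count of 3 lower came without any 1 siNQO1 library. Pathway genes called higher, 9 as reported, ran from 2 to 19 and those called lower, 6 as reported, from 2 to 19, with 12 lower under the filter of over 1 CPM. Again, the highest counts came without siCtrl replicate 2 and the lowest without a siNQO1 library. The cause of these shifts was not tested. The 11 shares that were planned kept their direction, and the 2 added ones, of Eif1ax and Eif2s3, were not run under the leave-one-out alternatives. Trib3 also lost its call with upper-quartile scaling, without the filter and with the replicate block, and Ppp1r15b with both FPKM fits and the replicate block, with an adjusted p of up to 0.0611 and 0.0563.

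None of the called genes named changed sign under any alternative run. Among the uncalled members named as the most abundant of their role or for the largest changes, 3 did. Other uncalled members with small changes did as well, such as Eif2s3, which ran from -0.056 to 0.18 with 1 library left out. Eif5a moved from -0.0019 to 0.011 with upper-quartile scaling, 0.0026 without the filter, 0.00089 with voom, 0.00081 with the replicate block, and 0.00042 and 0.040 without siCtrl replicates 1 and 3, within -0.062 to 0.040 over all libraries left out. Eif3f moved from 0.00030 to -0.0037 with RLE scaling, -0.0047 with library size alone, -0.012 with the filter of over 1 CPM, -0.0037 with DESeq2, -0.011 with both FPKM fits, -0.058 without siCtrl replicate 2, and -0.011, -0.0043 and -0.018 without siNQO1 replicates 1, 2 and 3, against a highest value of 0.038. Eif4g2 moved from 0.07 to -0.0018 without siCtrl replicate 1 and to -0.015 without siNQO1 replicate 1, against a highest value of 0.15.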

Other observations

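Rps6, a ribosomal protein of the small subunit and a target of S6 kinase in the mTORC1 list, was singled out after its values were seen. It measured 261, 285 and 246 FPKM in siCtrl replicates 1, 2 and 3 and 322, 289.7 and 3.74 FPKM in siNQO1 replicates 1, 2 and 3. With 127 reads, siNQO1 replicate 3 alone was low, while the other libraries held 6434 to 9253 reads, and the log2 fold change of -0.35 ± 0.95 (SE) was not called.

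Eif4g1 and Eif2b5, both lower in siNQO1, lie close together on chromosome 11. In the order of genes in RefSeq, 9 protein-coding genes lie between them, 8 of which were tested. Psmd2, a proteasome subunit, was the only gene of these 8 called lower, with a log2 fold change of -0.36 and an adjusted p of 0.00805 in edgeR, and none was called higher. That is near the share called over all genes, and the log2 fold changes of the 8 ran from -0.44 for Ece2 to 0.72 for Vwa5b2.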
